A study of Mus musculus with 4 samples.

Results

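The folding, translocation and stress genes of the endoplasmic reticulum (ER) were followed in leukocytes of the mouse colon after repeated restraint. The set held 40 genes, chosen by symbol from the 31053 genes of the count matrices, and all 40 were found. Wild-type C57BL/6 mice received either daily restraint over 7 days or control treatment, and the labels name no other allele or agent. CD45+ leukocytes, the blood-derived cells of a tissue, were sorted from the whole colon and run on the 10x Genomics droplet platform, which tags each captured transcript with a unique molecular identifier (UMI) near its 3′ end. The series holds 2 control and 2 stress libraries. The labels do not say whether these came from separate animals, so a p-value here measures the spread between these libraries, which may be technical.

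The ER is where secreted and membrane proteins are threaded through the Sec61 channel, trimmed by signal peptidase and folded by chaperones, lectins and disulfide isomerases. When unfolded protein builds up, the sensors IRE1 (gene Ern1), PERK and ATF6 start the unfolded protein response. IRE1 splices the Xbp1 message into the form that encodes an active factor, PERK signalling favours translation of ATF4, and ATF6 is cut to release a factor that binds chaperone promoters. Plasma cells, which export large amounts of antibody, need XBP1 for their secretory machinery, and in the gut wall most of them make IgA. Counts at the 3′ end of a gene do not separate spliced from unspliced Xbp1 and measure no protein, so the activity of the sensors was not measured.

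Barcodes were kept from 500 UMIs upward if mitochondrial transcripts made up no more than 10% and they were not marked as doublets, which left 2509 and 5357 control and 7777 and 4001 stress barcodes with 12098089 to 33777450 UMIs a library. A barcode was called plasma-gated when 8 genes, the antibody constant regions and the joining chain, made up at least 10% of its UMIs and at least 2 of 8 plasma cell markers were detected. None of the 40 genes was used in any gate. The gate held 1765 of 19644 barcodes, of which 93.0 to 96.2% in each library had IgA as the leading constant region. Another 239 barcodes met the gate but carried at least 3 markers of another class, 154 of them of T cells, and were kept apart. Libraries shared 3 to 10 barcodes in pairs. Control 1 stood apart, since 229 of its 2509 barcodes (9.13%) were fibroblast-gated against at most 0.0933% elsewhere, so results on all cells are also given without it.

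Plasma-gated cells held the ER genes at a level far above every other class. Pooled over the libraries, the 40 genes made up 6.11% of the non-antibody UMIs of plasma-gated cells (exact 95% Poisson interval 6.10 to 6.13%, counting error only). The set-apart barcodes with plasma and other markers held 4.21%. Among the other 9 classes plotted, the plasmacytoid dendritic cell, a secretor of interferon, was highest with 1.25% in 47 barcodes, followed by monocytes or macrophages with 0.841% in 1315 barcodes. B-gated cells, the class from which plasma cells arise, held 0.545% and T-gated cells 0.510%, and neutrophils were lowest with 0.379% in 80 barcodes. Antibody genes were left out of these totals, since they take 65.9 to 68.4% of the UMIs of plasma-gated cells. Counts per 1000000 UMIs are written CPM, and counts per 1000000 UMIs of other than antibody genes non-antibody CPM.

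**Figure D1:**
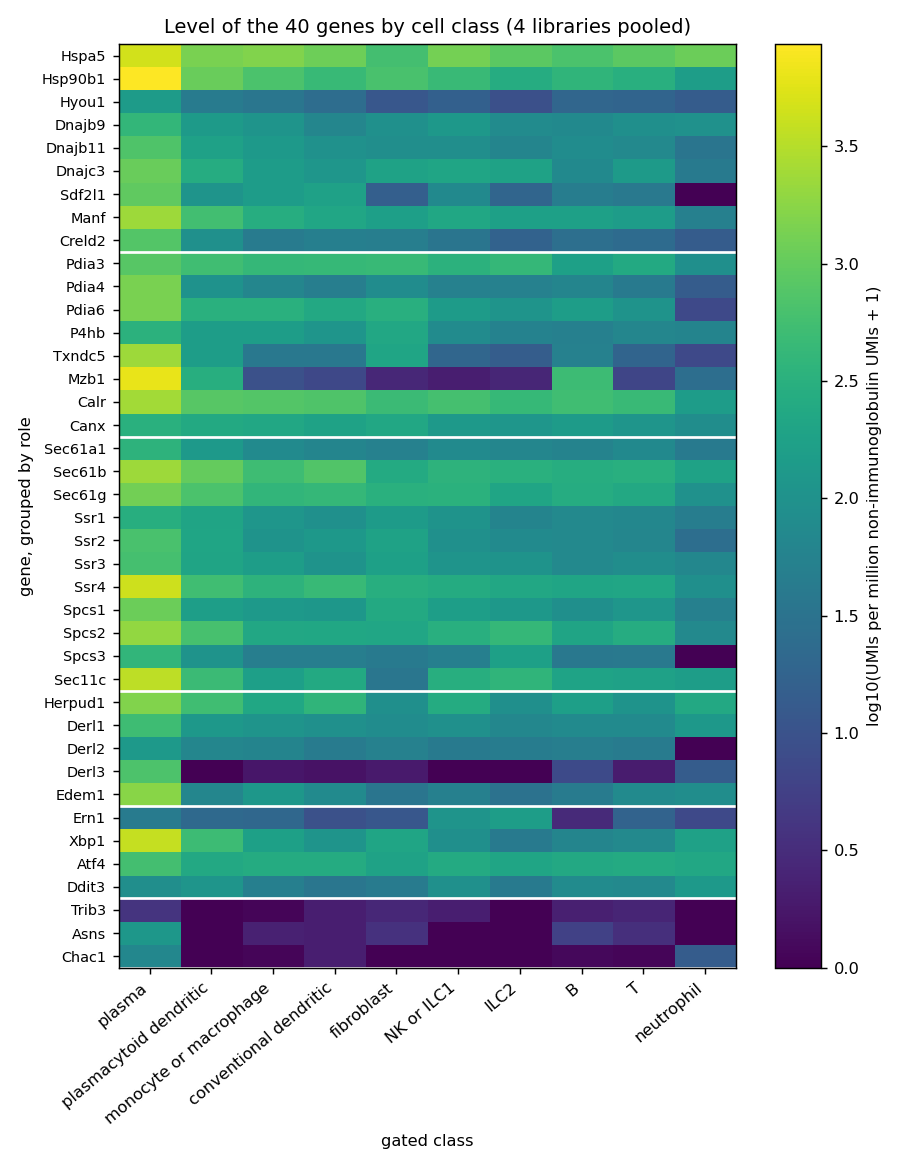
Level of each of the 40 genes (rows, grouped by role between white lines) in 10 gated classes (columns), as log10 of non-antibody CPM plus 1, with the 4 libraries pooled. The plasma column is the brightest of the 10 in every row except those of Ern1, brightest in type 2 innate lymphoid cells (ILC2, 154 non-antibody CPM from 93 UMIs), and Ddit3, brightest in neutrophils (129 non-antibody CPM from 20 UMIs).

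The difference between plasma-gated and B-gated cells was tested with edgeR's quasi-likelihood test with the library as a block. Of 39 genes tested, 39 were higher in plasma-gated cells, against 33.2% of all 10158 genes tested that were higher. Their median log2 difference was 3.33 against -0.029 over all genes. Scaling by library totals alone moved the median of all genes to -1.65 and that of the 39 to 1.72. Of the 39, 35 were then higher and 3 lower, against 845 higher and 8568 lower of all 10158 genes. Of a wider list of 84 further ER, secretion and stress genes, 74 of 79 tested in the main fit were higher in plasma-gated cells and 2 were lower. That fit called 3370 of all 10158 genes higher and 3392 lower.

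Among the chaperones, Hsp90b1, the ER member of the Hsp90 family, stood at 7177, 8996, 9245 and 8444 non-antibody CPM in plasma-gated cells of control 1, control 2, stress 1 and stress 2. In B-gated cells of the same libraries it stood at 370, 406, 390 and 320. The ranges of the classes lay far apart in every library (log2 difference 4.54, SE 0.09, edgeR adjusted p = 2.05e-13). Hspa5, the Hsp70 chaperone BiP that holds unfolded chains, was at 4739, 5585, 5218 and 4098 in plasma-gated and 807, 777, 676 and 468 in B-gated cells (log2 difference 2.90, SE 0.10). Creld2, an ER-resident isomerase-like protein, had the widest gap of the 9 chaperone-group genes at 4.95 on the log2 scale, and Dnajb9, a co-chaperone of BiP, the narrowest at 2.54.

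Of the folding enzymes, Txndc5, a thioredoxin-family isomerase, had the widest gap of 8, with 1993 to 2382 non-antibody CPM in plasma-gated and 43.8 to 61.8 in B-gated cells (log2 difference 5.5, SE 0.09). Mzb1, a cofactor of antibody folding made in B-lineage cells, was also well detected in B-gated cells, at 374 to 575 against 5610 to 7032 in plasma-gated cells. Canx, the membrane-bound lectin chaperone calnexin, differed least (log2 difference 1.2, SE 0.09, 308 to 324 against 128 to 149). In CPM, with antibody UMIs in the total, Canx was lower in plasma-gated cells of every library (99.5 to 109 against 126 to 147). The 11 translocon and signal peptidase genes had log2 differences from 2.09 for Ssr1 to 4.37 for Ssr4, both subunits of the complex that assists the Sec61 channel.

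The degradation genes ran from Derl2 (log2 difference 1.53) to Derl3 (6.75, SE 0.32), which belong to the derlin family that helps move misfolded chains out of the ER. In CPM, with antibody UMIs in the total, Derl2 overlapped between the classes (41.8 to 48.5 against 45.6 to 50.4). Derl3 was at 599 to 714 non-antibody CPM in plasma-gated cells and at 2.07 to 9.04 in B-gated cells. Edem1, which marks misfolded glycoproteins for removal, had a log2 difference of 5.38 and Herpud1, an ER membrane protein of the same route, 3.42. Xbp1 stood at 4093, 3597, 3554 and 4165 in plasma-gated and 52.7, 52.9, 63.8 and 64.9 in B-gated cells, a log2 difference of 6.07 (SE 0.08, edgeR adjusted p = 1.51e-15). Ern1, the gene of its splicing enzyme, had 29.5 to 45 non-antibody CPM against 1.36 to 2.98.

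The transcription factors of the PERK side differed less between the classes than Xbp1 did. Atf4 was at 524 to 628 non-antibody CPM in plasma-gated and 215 to 252 in B-gated cells (log2 difference 1.33, SE 0.08). In CPM, with antibody UMIs in the total, Atf4 was lower in plasma-gated cells of every library (176 to 211 against 212 to 249). Ddit3, the gene of the stress factor CHOP, was at 83.9 to 101 against 61.1 to 88.4, so the ranges overlapped (log2 difference 0.26, SE 0.11, edgeR adjusted p = 0.039). That call was lost under 6 of 9 other settings, with adjusted p up to 0.385 without stress 2, and with library totals alone the log2 difference was -1.35. Of the genes that ATF4 is known to raise, Asns, asparagine synthetase, was at 106 to 141 against 1.04 to 7.45 (log2 difference 4.75, SE 0.36). Chac1, which breaks down glutathione, had 672 UMIs in plasma-gated cells and 6 in B-gated cells, or 65.9 against 0.224 non-antibody CPM, so the size of its fitted difference rests on few counts. Trib3, a pseudokinase induced by CHOP, had 30 UMIs in all plasma-gated cells and was too low for this test.

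Promoter sequences from RefSeq (GRCm38.p6) were at hand for 32 of the 40 genes, from 250 bases before to 50 bases after the transcription start, in 35 windows. The genes with no window at hand were Manf, Hyou1, Sec61a1, Ssr2, Spcs3, Sec11c, Derl1 and Mzb1. The windows were searched on both strands for the ER stress element, which is CCAAT and CCACG with 9 bases of any kind between them, known from chaperone promoters as a site read by ATF6 with the factor NF-Y. It lay in 8 of the 32 genes (25%), while 0.119% of 32851 windows of all genes held it. Here and below, the first share counts genes with a match in any window. The second counts windows, 32851 from 27025 genes, so the 2 units differ, and the shares were not tested. The sites are shown to compare the letters between genes, written in the direction of the motif with its fixed letters in capitals:
Calr: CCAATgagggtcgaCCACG
Canx: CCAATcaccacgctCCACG
Creld2: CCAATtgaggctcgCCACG
Derl3: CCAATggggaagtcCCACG
Dnajc3: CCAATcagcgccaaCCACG
Hsp90b1: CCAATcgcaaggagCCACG
Hsp90b1: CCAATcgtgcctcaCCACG
Hspa5: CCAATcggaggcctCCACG
Pdia6: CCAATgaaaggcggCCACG
Hsp90b1 held 2 of these sites. The sites lay between 212 and 47 bases before the start, on either strand. Of the genes listed, Derl3 and Creld2 were among the widest plasma-to-B differences (6.75 and 4.95), whereas Canx had 1.2, so the same letters stood before genes at both ends of that range.

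The shorter ER stress element II, ATTGG and CCACG with 1 base of any kind between them, lay in 2 of the 32 genes, Herpud1 and Dnajb11, and in 0.0365% of all windows. The unfolded protein response element TGACGTGG, a binding sequence of XBP1, lay in a Txndc5 window alone among the 32 genes and in 0.676% of all windows. The amino acid response element, searched as TGATGNAAN and bound by ATF4 dimers, lay in Asns, Chac1, Herpud1, Trib3 and Txndc5 (15.6% of 32 genes) and in 3.95% of all windows. A match is a description of letters and not of binding. Only exact matches were counted, so a near match in a printed sequence is not marked. The 250 bases before the start of Hspa5 (chr2:34771840-34772089, plus strand), Hsp90b1 (chr10:86705445-86705694, minus strand) and Herpud1 (chr8:94386179-94386428, plus strand) are printed 5′ to 3′ along the gene, with every match to these motifs in capitals, since they set a single, a repeated and a mixed arrangement side by side:
Hspa5: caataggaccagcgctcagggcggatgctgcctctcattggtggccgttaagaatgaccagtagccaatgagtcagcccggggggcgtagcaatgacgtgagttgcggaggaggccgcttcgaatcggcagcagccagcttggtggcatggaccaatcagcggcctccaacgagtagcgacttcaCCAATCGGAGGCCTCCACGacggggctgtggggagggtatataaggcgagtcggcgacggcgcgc
Hsp90b1: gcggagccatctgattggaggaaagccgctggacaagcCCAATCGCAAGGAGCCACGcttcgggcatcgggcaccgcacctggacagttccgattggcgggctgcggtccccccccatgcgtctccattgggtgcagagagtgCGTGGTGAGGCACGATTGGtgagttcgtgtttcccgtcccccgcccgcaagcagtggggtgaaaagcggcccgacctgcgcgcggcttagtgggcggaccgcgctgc
Herpud1: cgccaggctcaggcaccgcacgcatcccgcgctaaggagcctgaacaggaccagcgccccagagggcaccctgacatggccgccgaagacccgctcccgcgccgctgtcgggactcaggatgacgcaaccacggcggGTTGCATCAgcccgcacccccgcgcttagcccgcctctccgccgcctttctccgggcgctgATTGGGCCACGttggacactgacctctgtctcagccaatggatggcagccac

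In all kept cells, the question was whether the ER genes stood at other levels in the sorted tissue after restraint. The 40 genes together made up 0.996 and 0.758% of UMIs in control 1 and control 2 and 1.25 and 1.28% in stress 1 and stress 2 (0.877% ± 0.168 against 1.27% ± 0.0189, SD, n = 2 each). Both stress libraries were above both controls. By gene, 28 of 40 had both stress libraries above both controls in CPM, against 9.18% of all genes, and Dnajb9 alone had both below, against 33.7% of all genes. These CPM hold antibody UMIs in the total, whose amount differs between the libraries with the plasma share. In non-antibody CPM, 33 of 40 had both stress libraries above both controls, against 27.0% of all genes, and 0 had both below, against 11.1%. Dnajb9 turned in direction, with 136 and 117 non-antibody CPM in the controls and 146 and 145 in the stress libraries. Such a sum holds both the number of cells of a type and the RNA in each, and these cannot be told apart in it.

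No gene of the 13136 tested in all kept cells passed the edgeR test (0% called). At an unadjusted p under 0.05 there were 871 genes (6.63%), with 17 of the 40 among them. DESeq2 called 127 genes, and 0.518% of genes as higher, with 7 of the 40: Mzb1, Derl3, Edem1, Hsp90b1, Txndc5, Manf and Dnajb11. Without control 1, edgeR called 29 of the 40 as higher (10.4% of all genes), and without control 2 it called 16 (5.45%). The fitted log2 difference was positive for 39 of 40, against 44.5% of all genes, with a median of 0.60 against -0.042 over all genes. With library totals alone (no TMM scaling), 34 of 40 were positive, the medians were 0.41 and -0.24, and Atf4, Canx, Dnajb9, Pdia3 and Trib3 turned negative.

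Hsp90b1 had 988, 747, 1536 and 1580 CPM in the libraries in that order, with both stress libraries above both controls (log2 difference 1.03, SE 0.24, edgeR adjusted p = 0.721). Mzb1 had 613, 463, 1164 and 1105 CPM (log2 difference 1.26, SE 0.23) and Xbp1 451, 228, 552 and 728 (1.10, SE 0.43). For Xbp1, control 1 lay closer to stress 1 than to control 2. Hspa5 had 1249, 1008, 1254 and 1067 CPM and its groups overlapped (log2 difference 0.22, SE 0.21), but in non-antibody CPM it had 1568, 1121, 1742 and 1598 and they did not. Atf4 likewise overlapped with 224, 254, 232 and 201 CPM and did not with 281, 283, 322 and 301 non-antibody CPM. Ddit3 overlapped on both scales, with 54.8, 64.6, 58.7 and 45 CPM and 68.8, 71.8, 81.5 and 67.4 non-antibody CPM.

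The share of plasma cells differed between the same libraries. Plasma-gated barcodes were 7.13 and 2.13% of kept barcodes in the controls and 11.1 and 15.1% in the stress libraries (4.63% ± 3.54 against 13.1% ± 2.81, SD, n = 2 each). The groups did not overlap, but 2 libraries against 2 cannot give an exact two-sided permutation p below 0.333, which is the value obtained (edgeR on cell counts, log2 difference 1.51, SE 0.78, adjusted p = 0.313). Plasma-gated barcodes had medians of 11897 to 22449 UMIs a library and held 25.8 and 9.62% of all UMIs in the controls and 36.6 and 43.5% in the stress libraries.

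**Figure D2:**
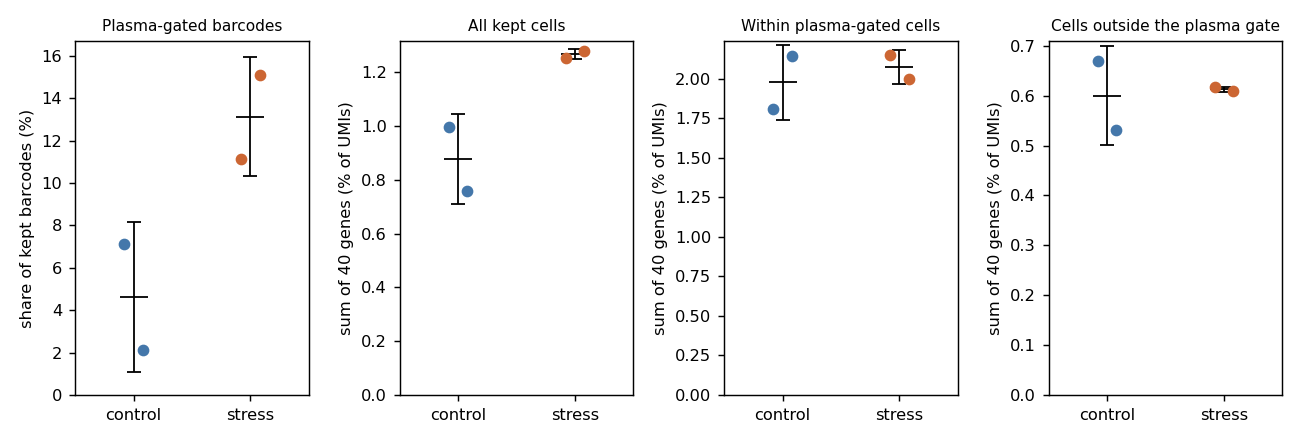
From left, the share of plasma-gated barcodes (% of kept barcodes), and the summed level of the 40 genes (% of UMIs) in all kept cells, within plasma-gated cells and in cells outside the gate. Points are libraries, bars the mean and SD of 2 libraries. Cells outside the gate do not include the set-apart barcodes. The groups are apart in the first 2 panels (0.996 and 0.758% against 1.25 and 1.28% in all cells) and overlap in the other 2.

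Within plasma-gated cells the level of the ER genes was 1.81 and 2.14% of UMIs in the controls and 2.15 and 2.00% in the stress libraries (1.98% ± 0.236 against 2.07% ± 0.107, SD, n = 2 each). The groups overlapped, and so they did per non-antibody UMI, with 5.73, 6.28, 6.40 and 5.95%. In the edgeR test on plasma-gated sums, 0 of 39 genes passed, against 0.585% of 9066 genes tested (53 genes, 43 of them lower in stress). At an unadjusted p under 0.05 there was 1 of the 39 (P4hb) against 10.7% of all genes, and DESeq2 also called 0 of 39. The log2 differences were positive in 16 and negative in 23, against 50.1% positive over all genes, with a median of -0.021 against 0.00077. With library totals alone 26 were positive and 13 negative. Plasma-gated cells had 1890996 to 14697221 UMIs a library.

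In these cells Hsp90b1 stood at 2266 and 3067 CPM in the controls and 3108 and 2836 in the stress libraries, with a log2 difference of 0.085 (SE 0.15, edgeR adjusted p = 0.909) that was -0.060 without control 1. Xbp1 stood at 1292 and 1226 against 1195 and 1399 CPM (log2 difference -0.037, SE 0.15), a sign that turned under 5 of 18 other settings. Hspa5 stood at 1496 and 1904 against 1754 and 1376 CPM (log2 difference -0.19, SE 0.16). The groups overlapped for each of these genes. The gene with the largest positive log2 difference was P4hb, a disulfide isomerase and prolyl hydroxylase subunit, at 76.4 and 105 against 125 and 115 CPM (0.34, SE 0.14, edgeR adjusted p = 0.436). Herpud1 had the largest negative one, at 562 and 622 against 534 and 491 CPM (-0.28, SE 0.13, adjusted p = 0.468). Both stress libraries were above both controls for 4 genes (Edem1, Ern1, P4hb and Ssr2) against 27.2% of all genes, and below for Herpud1 alone against 14.8%. In non-antibody CPM these were 6 of 40 genes against 24.0%, with Dnajb11 and Trib3 added, and 3 against 17.7%, with Dnajb9 and Spcs3 added.

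**Figure D3:**
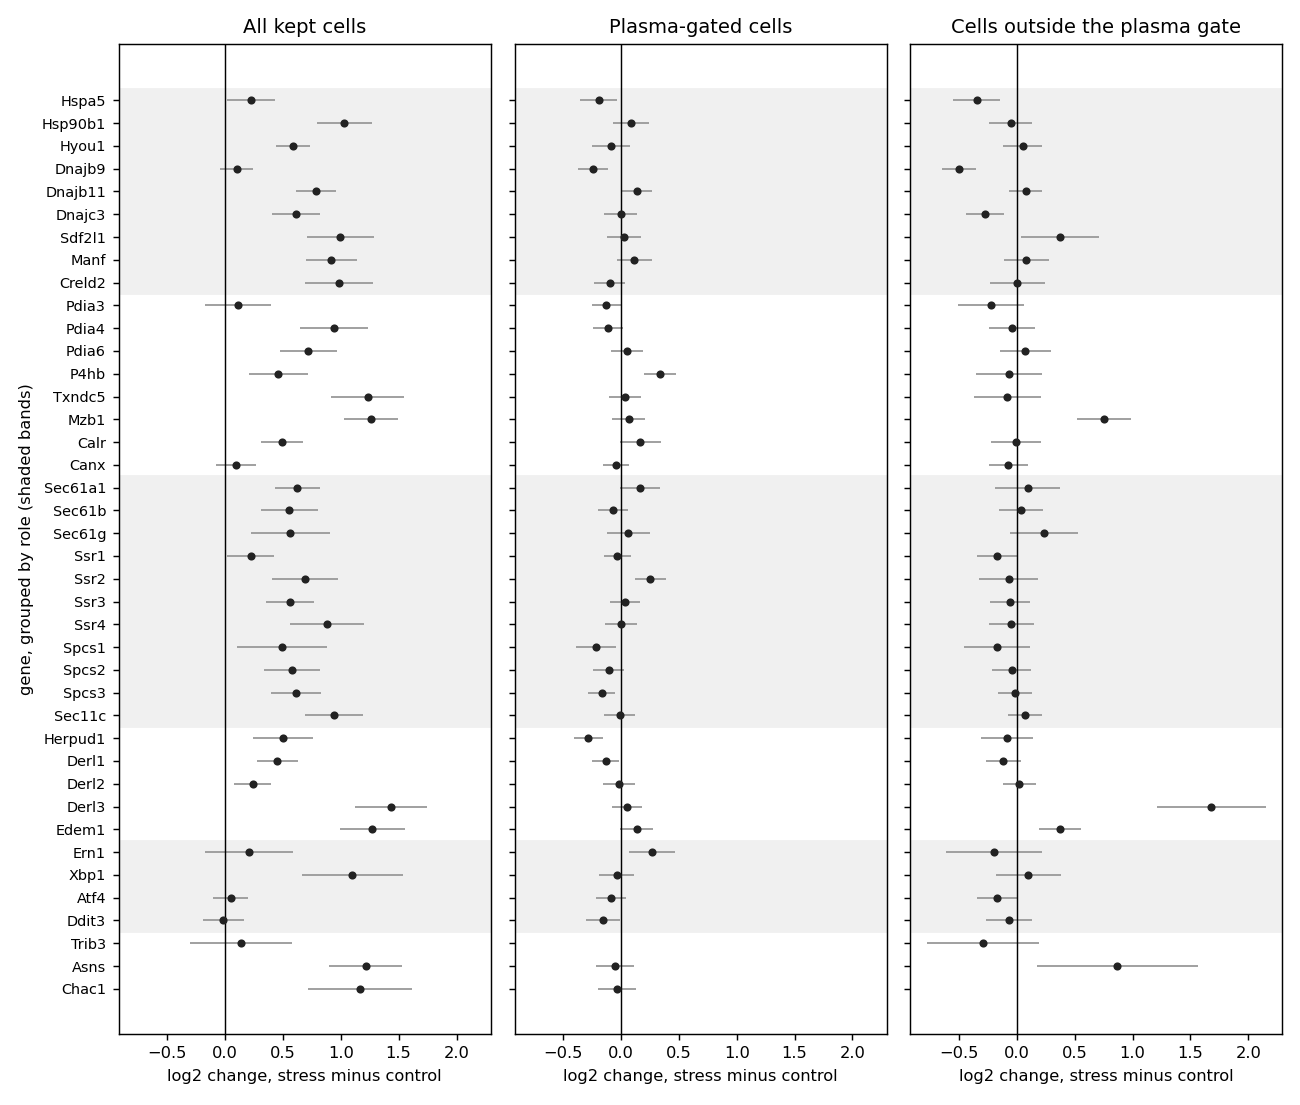
Fitted log2 difference between stress and control (points) with its standard error (bars) for each of the 40 genes in all kept cells, plasma-gated cells and cells outside the gate, where tested. In all kept cells 39 of 40 lie right of 0, in plasma-gated cells 16 of 39 and outside the gate 16 of 39. None passed the edgeR test in these 3 fits. The fit outside the gate left out the set-apart barcodes.

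The wider list of 84 ER, secretion and stress genes was tested in the same plasma-gated sums, with 81 genes tested, 0 higher and 2 lower, beside the 10 higher and 43 lower of all 9066 genes (0.585% called). The median log2 difference was -0.035 against 0.00077 over all genes. The 2 were stress-factor genes of the integrated stress response. Ppp1r15a, the gene of GADD34, which restores translation after that response, was at 95 and 84.6 CPM in the controls and 50.2 and 47.4 in the stress libraries (log2 difference -0.97, SE 0.13, edgeR adjusted p = 0.0164). Atf3, a factor induced by ATF4 and by many other stimuli, was at 11.5 and 7.4 against 3.05 and 1.77 CPM (-2.16, SE 0.36, adjusted p = 0.0385), from 14 to 36 UMIs a library. The Ppp1r15a call was lost without stress 1 (adjusted p = 0.0828) or stress 2 (0.0855), and the Atf3 call without control 1 (0.189) or stress 2 (0.15) and with doublets kept (0.199) or equal numbers of barcodes (0.181). Cebpb, a factor induced by stress and by inflammation, had the next lowest p on that side (93.7 and 92.5 against 74.8 and 64.4 CPM, adjusted p = 0.168). On the other side the lowest p belonged to Srp68, a subunit of the signal recognition particle (22.8 and 22.2 against 35.2 and 30.3 CPM, adjusted p = 0.349), Dnajc10, an ER disulfide reductase (0.383), and Wars, a tryptophan transfer RNA synthetase (0.436).

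The ER genes also differed among plasma-gated cells of a single library. Cells were split into 4 groups by antibody share, the largest being that from 60 to 75%, with 70 to 431 barcodes a library and the 40 genes at 5.67, 6.12, 6.52 and 5.98% of non-antibody UMIs in the libraries in order. Cells with 40 to 60% antibody UMIs held the 40 genes at 6.24, 7.43, 6.94 and 6.88%, from 17 to 171 barcodes. Cells above 75% held 5.90, 6.17, 5.75 and 5.19%, and cells below 40% held 4.67, 4.77, 5.79 and 5.36% from 7 to 63 barcodes. The group from 40 to 60% was the highest of the 4 groups in all 4 libraries, controls included.

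To set the plasma share apart from the level, the difference between the group means of all-cell CPM was written as the sum of a part from the plasma share of UMIs, a part from the level within plasma-gated cells and a part from the level in all other cells. The other cells here included the set-apart barcodes with plasma and other markers. Other cells held the 40 genes at 7141 and 6108 CPM in the controls and 7354 and 7266 in the stress libraries. For the 40 genes together the all-cell means were 8771 and 12668 CPM, a difference of 3897. Of this, 3047 (78.2%) came from the share, 342 (8.77%) from the level within plasma-gated cells and 509 (13.1%) from other cells. In non-antibody CPM the difference was 7820, with 86.3% from the share, 3.1% from the plasma level and 10.6% from other cells. With doublets kept, other cells gave 26.1%, and with barcodes of mixed markers counted as plasma they gave 2.78%. Over the 4 pairings of a control with a stress library, the share gave 52.8 to 91.0% of the difference and the plasma level between -381 and 1068 CPM. Without control 2 the share gave 63.9% and the plasma level 31.9%, and without control 1 they gave 85.8% and -3.55%.

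By gene, Hsp90b1 contributed the most, with 690 CPM in all, of which 518 came from the share, 102 from the plasma level and 70.8 from other cells. Mzb1 followed with 596 CPM (395, 63.9 and 138), then Ssr4 with 304 (239, 19.7 and 44.6) and Xbp1 with 300.2 (249, 11.3 and 39.9). Hspa5 had parts of opposite sign, 160 CPM from the share, -34.1 from the plasma level and -93.7 from other cells, which left 32.2. In non-antibody CPM the parts of Hspa5 had the same signs (491, -66.4 and -99.7) and left 325. Dnajb9, Ddit3, Canx, Pdia3 and Atf4 had negative whole differences, from -6.39 to -22.4 CPM, and Trib3 was at -0.0369. These signs hold only with antibody UMIs in the total, since in non-antibody CPM all 40 whole differences were positive (Dnajb9 18.2, Ddit3 4.18, Canx 22.6, Pdia3 47.1, Atf4 29.8 and Trib3 0.246). For Atf4, Canx and Ddit3 the share part itself was negative (-10.3, -8.87 and -7.83), whereas in non-antibody CPM it was positive (41.1, 20.2 and 2.82). Per UMI of any gene, antibody genes included, these 3 were lower in plasma-gated than in other cells. Per non-antibody UMI, Atf4 was higher in plasma-gated cells of every library (524 to 628 against 239 to 270) and so was Canx (308 to 324 against 137 to 175).

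**Figure D4:**
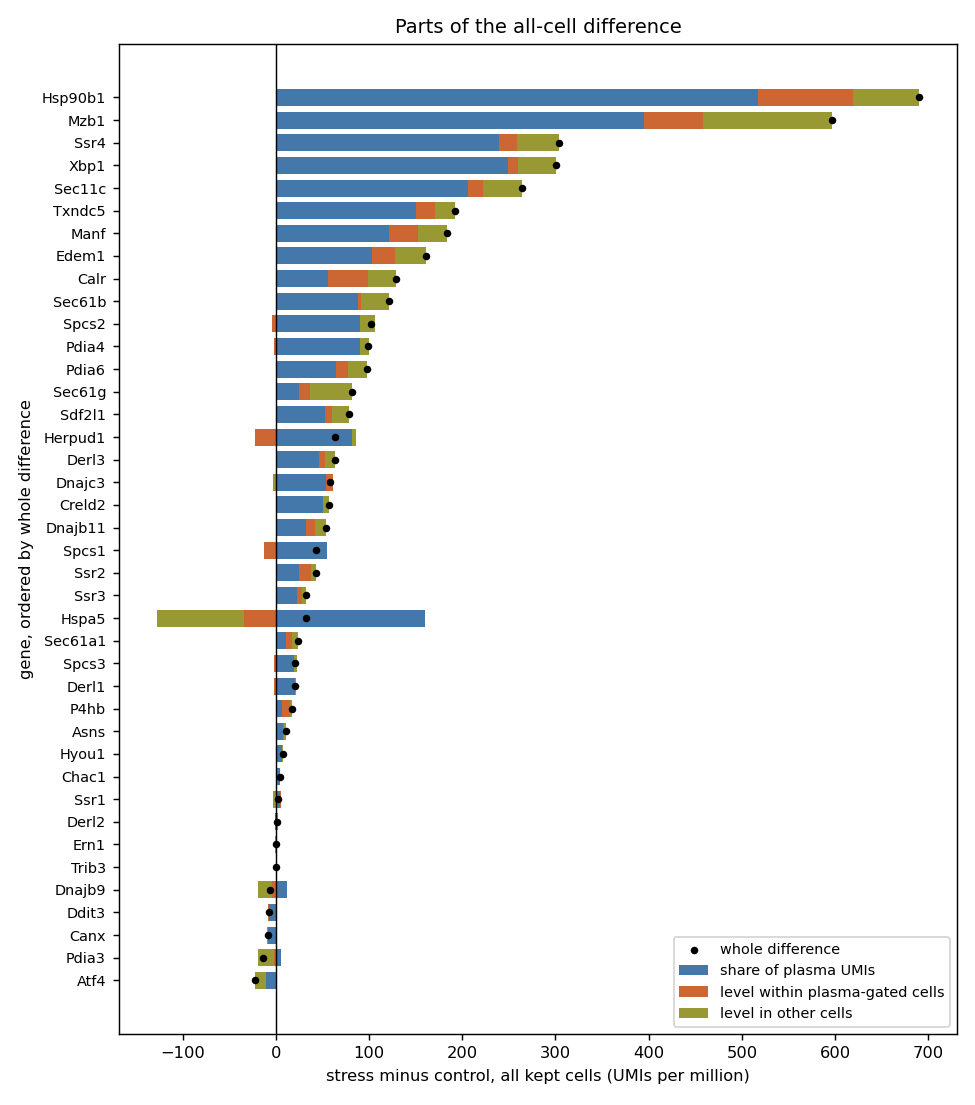
Difference in all-cell level between stress and control means for each of the 40 genes (CPM, antibody UMIs in the total), split into parts from the plasma share of UMIs (blue), the level within plasma-gated cells (orange) and the level in other cells (olive), with the whole difference as a black point. Blue makes up most of the bar for Hsp90b1 (518 of 690), and Hspa5 has blue against olive and orange. Other cells include the set-apart barcodes.

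Outside the plasma gate, with the set-apart barcodes also left out, the 40 genes made up 0.670 and 0.530% of UMIs in the controls. The stress libraries had 0.617 and 0.609%, so the groups overlapped. The other cells of the split above held the set-apart barcodes, and there the groups did not overlap. Of 39 genes, 0 passed edgeR (0% of 12732 genes), and DESeq2 called 0 of 39. At an unadjusted p under 0.05 there were 629 genes (4.94%), 3 of them among the 39. The log2 difference was positive for 16 of 39, against 43.8% of all genes, with a median of -0.045 against -0.042. Both stress libraries were above both controls for 7 (23.9% of all genes) and below for 2, Dnajb9 and Dnajc3 (11.2%). Without control 1, 7 of 39 passed (6 higher, 1 lower, 15.5% of all genes), and without control 2, 3 did (20.4%). Derl3 had the largest difference, at 2.82 and 1.26 against 7.47 and 6.02 CPM (log2 difference 1.68, SE 0.47, adjusted p = 0.906), and Mzb1 stood at 146 and 182 against 321 and 268 CPM (0.75, SE 0.23). Both passed without control 1 (adjusted p = 0.00015 and 0.0371) and without control 2 (0.0408 and 0.0139).

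Antibody message was also higher in the stress libraries in cells that do not make it. In T-gated cells Igha was at 174 and 154 CPM in the controls and 608 and 906 in the stress libraries, and Mzb1 at 0.729 and 3.6 against 7.05 and 9.67. Derl3 in T-gated cells was at 0 and 0.164 against 2.35 and 1.38 CPM. In monocyte or macrophage-gated cells Igha was at 178 and 134 against 527 and 750 CPM. There Mzb1 was at 4.43 and 3.52 against 6.69 and 12.6 CPM. Derl3 overlapped there, at 1.48 and 0 against 0.446 and 0.702 CPM. The Igha levels of T-gated and of monocyte or macrophage-gated cells were 0.117 to 0.530% of its plasma-gated level. Most Mzb1 UMIs outside the gate lay in B-gated cells. In control 1, control 2, stress 1 and stress 2 these were 1160 of 1244, 2885 of 3024, 5093 of 5495 and 4277 of 4542. B-gated cells held Mzb1 at 483 and 370 against 568 and 535 CPM, and Derl3 at 7.09 and 2.05 against 8.93 and 8.38. They were 36.3, 54.3, 50.6 and 45.8% of kept barcodes in the libraries in order. Empty droplets were not analysed here, and the part of free RNA in the Derl3 and Mzb1 values was not tested.

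By class, 0 of 38 genes passed in B-gated cells (0.924% of 10395 genes called), 0 of 37 in T-gated cells (0% of 9910 called, 723 at an unadjusted p under 0.05, DESeq2 0 of 37) and 0 of 36 in monocyte or macrophage-gated cells (0.267% of 8250 called). Dnajb9 had stress libraries below controls in all 3: 85 and 83.1 against 74 and 58.9 CPM in B-gated, 101 and 110 against 69.8 and 77.3 in T-gated, and 149 and 148 against 90.6 and 94.4 in monocyte or macrophage-gated cells. Its log2 differences were -0.43, -0.67 and -0.75 (SE 0.17, 0.19 and 0.17; edgeR adjusted p = 0.249, 0.553 and 0.129). Over 13 other settings its log2 difference ran from -0.787 to -0.508 in T-gated cells. In monocyte or macrophage-gated cells it ran from -0.812 to -0.650. Herpud1 in monocyte or macrophage-gated cells (354 and 227 against 183 and 192 CPM) and Asns in B-gated cells (4.17 and 1.03 against 7.36 and 5.26 CPM) had adjusted p = 0.285 and 0.154. Over other settings the log2 difference of Herpud1 ran from -1.04 to -0.250 and that of Asns from 0.522 to 2.51. In T-gated cells Ern1 stood at 19 and 4.26 against 26.9 and 27.6 CPM (log2 difference 1.5, SE 0.57, edgeR adjusted p = 0.664). That difference ran from 0.469 to 2.46 over other settings.

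Whether the stress difference itself differed between plasma-gated and B-gated cells was tested as an interaction with the library as a block. Of 39 genes 2 passed, both with a higher difference in plasma-gated cells, against 0.443% of 10158 genes. The interaction was positive for 26 of 39, against 57.7% of all genes, with a median of 0.16 against 0.078. With no filter on low counts, 3 of 40 passed as higher and 2 as lower, beside 146 higher and 85 lower of all 17266 genes. For Hspa5 the interaction was 0.44 on the log2 scale (SE 0.09, edgeR adjusted p = 0.0277), with log2 differences of -0.19 in plasma-gated and -0.56 in B-gated cells, where it stood at 798, 768, 668 and 462 CPM. For Hsp90b1 it was 0.37 (SE 0.08, adjusted p = 0.0339), with 0.085 in plasma-gated and -0.22 in B-gated cells. Calr, the lectin chaperone calreticulin, lay just past the threshold (0.42, SE 0.10, adjusted p = 0.0561). Both calls were lost when antibody genes were left out (adjusted p = 0.0649 and 0.0871), with library totals alone (0.206 and 0.304) and by DESeq2 (0.552 and 0.675). They were also lost without control 1 (0.0917 and 0.0972), stress 1 (0.237 and 0.309) or stress 2 (0.782 and 0.859).

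**Figure D5:**
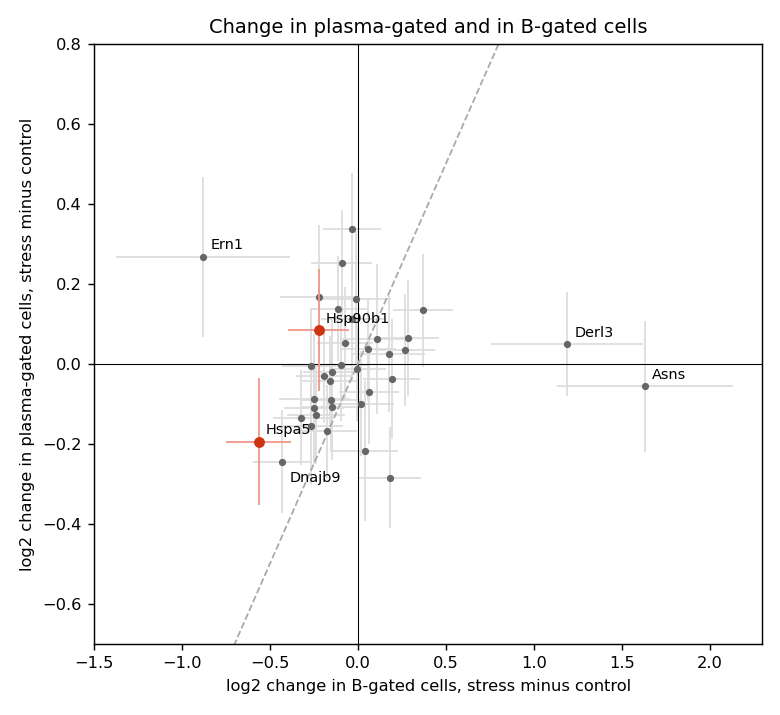
Log2 difference between stress and control in B-gated cells (horizontal) and in plasma-gated cells (vertical) for the genes tested in both, with standard errors as bars and equal differences on the dashed line. Red points are Hspa5 (-0.56, -0.19) and Hsp90b1 (-0.22, 0.085), the 2 genes that passed the interaction test, and both lie above the line.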

How the data were processed

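Single-cell 3′ RNA libraries of sorted colon leukocytes were analysed from 10x matrices, 2 control and 2 stress. The deposited values are raw UMI counts per gene and barcode. Per the submitters' processing notes, the authors used Cell Ranger 5 (also written 5.0) with mm10, while the deposited matrix headers name software version 3.1.0. No source used here gives the annotation release. The 40 genes, the wider list of 84 and all rules were chosen with earlier results of these data known.

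Barcodes were kept from 500 UMIs upward and up to 10% mitochondrial UMIs. Doublets were marked with Scrublet as implemented in scanpy 1.11.5. Its automatic cut marked 1.58% of barcodes in control 2 and was used there. In the other libraries it marked 0.012 to 0.234%, so the highest scores were removed at an expected rate of 0.8% per 1000 barcodes. This removed 53, 86, 556 and 137 barcodes in control 1, control 2, stress 1 and stress 2. A class needed at least 2 of its markers (Tent5c is named Fam46c in the files), and plasma-gated barcodes with at least 3 markers of another class were set apart. Counts were summed per library and class and tested with edgeR 4.0.16 in R 4.3.3 (filterByExpr, TMM scaling, quasi-likelihood test, Benjamini-Hochberg adjustment over all genes, threshold 0.05). The tests were checked on simulated data. Non-overlap of groups was counted over genes with a mean of at least 1 CPM. All 40 genes could be named, and of the wider list the 3 with the lowest p in each direction in plasma-gated cells.

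Alternatives were DESeq2 1.42.0, library totals without TMM, no filter on low counts, antibody genes left out, doublets kept, 25% mitochondrial UMIs, Leiden clusters (leidenalg 0.10.2), a stricter plasma gate, no dividing barcodes, equal barcodes, a replicate block and each library left out. Added after seeing the data were IgA barcodes only, barcodes with other markers kept or counted as plasma, crossed pairing, and non-overlap counted without antibody genes. Poisson intervals cover counting error only. Depth ranged from 12098089 to 33777450 kept UMIs a library.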

Additional observations from a re-analysis of the deposited data

Results flagged for a closer look

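The stress difference of Hspa5, the chaperone BiP, was higher in plasma-gated than in B-gated cells by 0.437 on the log2 scale (SE 0.09, edgeR adjusted p = 0.0277, interaction test with the library as a block). Hsp90b1, the ER form of Hsp90, was higher by 0.368 (SE 0.08, adjusted p = 0.0339). Both were picked out because they passed this interaction test. Over 9 other settings the interaction stayed positive, from 0.304 to 0.567 for Hspa5 and from 0.261 to 0.449 for Hsp90b1. Both calls were lost with antibody genes left out, with library totals alone, by DESeq2 and under other settings given above. For neither gene did the stress difference pass within plasma-gated cells (adjusted p = 0.733 and 0.909), and Hspa5 in B-gated cells had adjusted p = 0.176.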

How the results depend on the processing

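Within plasma-gated cells, 0 of 39 ER genes passed under every alternative run, while the count over all genes (53) was 266 with no filter on low counts, 85 without dividing barcodes and 30 with equal barcodes. In all kept cells (0 genes) DESeq2 gave 127, with 7 ER genes, and outside the plasma gate (0) it gave 68. In B-gated cells (96) the count was 56 by DESeq2, 163 without TMM, 506 with no filter (2 ER genes), 28 with 25% mitochondrial UMIs and 17 with Leiden clusters. In T-gated cells (0) it was 13 by DESeq2 and 214 with no filter (1 ER gene). In monocyte or macrophage-gated cells (22) it was 69, 42 and 391 (2 ER genes) under the first 3 of these, 43 with 25% mitochondrial UMIs and 1 with Leiden clusters. The interaction (83, with 2 ER genes) gave 231 and 5 ER genes (3 higher, 2 lower) with no filter. It gave 27 and 0 by DESeq2, and 0 ER genes without TMM or with antibody genes left out. The log2 ratio of the summed ER level in all kept cells was 0.80 with antibody genes left out against 0.53. The part of the all-cell difference from other cells (13.1%) was 26.1% with doublets kept and 2.78% with barcodes of mixed markers counted as plasma. The log2 difference of Xbp1 in plasma-gated cells (-0.037) was 0.042 without TMM, 0.0048 with no filter, 0.076 with mixed-marker barcodes kept, and from -0.16 to 0.099 with each library left out (above 0 without control 1 or stress 1). That of Hsp90b1 (0.085) ran from -0.060 to 0.27 with each library left out, and was below 0 without control 1 only. Ddit3 between plasma-gated and B-gated cells was -1.35 without TMM. The causes of these shifts were not tested.

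Leaving out each library in turn gave 33 to 203 genes in plasma-gated cells (0 ER genes), 0 to 3082 in all kept cells (0 to 29), 0 to 2846 outside the gate (0 to 7), 7 to 1241 in B-gated (0 to 2), 0 to 1595 in T-gated (0 to 5) and 7 to 781 in monocyte or macrophage-gated cells (0 to 3). It gave 5704 to 7071 between plasma-gated and B-gated cells (38 to 39) and 38 to 415 for the interaction (0 to 6). The difference in plasma share ran from 6.00 to 11.0 percentage points. The log2 ratio of the summed level ran from -0.05 to 0.20 in plasma-gated cells, 0.35 to 0.74 in all kept cells and -0.13 to 0.21 outside the gate. The parts of the all-cell difference ran from 63.9 to 85.8% for the share, -3.55 to 31.9% for the plasma level and 4.20 to 17.8% for other cells. With 1 library in an arm, that library is assumed to vary like the other group.

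Over genes, the deviations of same-numbered libraries had weak negative correlations (r = -0.194 in plasma-gated cells, -0.0754 to -0.320 in the other sums). The numbers were therefore not taken as a pairing. The replicate block gave 8 genes in plasma-gated, 7 in B-gated, 1 in T-gated and 34 in monocyte or macrophage-gated cells, and Ppp1r15a and Atf3 in plasma-gated cells both had adjusted p = 0.0985. Crossed pairing gave 113, 482 (3 ER genes), 77 and 96 genes in the same order. Depth limits the rare genes most, such as Trib3.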
